A study of Arabidopsis thaliana with 9 samples.

Results

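A set of 138 probe sets, out of 28501 on the array, formed a staircase across 3 Arabidopsis thaliana genotypes: lowest in wild type, intermediate in the spt16-1 mutant and highest in the ssrp1-2 mutant. A probe set belonged to it when all 3 ssrp1-2 values exceeded all 3 spt16-1 values, all of these exceeded all 3 wild-type values, and mean ssrp1-2 minus mean wild type was at least 0.5 on the log2 scale. The values of all 9 arrays chose the members, so the levels below describe the set and carry no test. A count on arrays that the choice left aside is given near the end.

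FACT is a dimer of SSRP1 and SPT16 that handles histones during transcription, opening nucleosomes ahead of RNA polymerase II and restoring them behind it. Plants carrying the ssrp1-2 or the spt16-1 allele in the Col-0 background were compared with Col-0 wild type, 3 arrays per genotype. Shoots (everything above ground) of seedlings aged 10 days were pooled, 100 mg per pool, after growth at a light setting of 100 µmol on medium with MS salts at 0.5 strength, and the labels name no treatment. The labels call the 3 arrays of a genotype biological replicates without saying whether the pools came from separate sowings, and name 1 allele per gene, so an effect of the allele and of the line that carries it cannot be told apart. No probe set assigned to 1 gene was matched to the symbol SSRP1 or SPT16, and the levels of these genes were not analysed here.

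The deposited values are RMA values, a log2 measure of array brightness after background correction and normalization to a common distribution, in which a difference of 1 is a doubling. Array medians lay between 4.95 and 4.98. Pearson's r over all probe sets, which are not independent, was 0.992 to 0.994 for pairs of arrays within a genotype and 0.989 to 0.992 for pairs between genotypes. RCA, which encodes Rubisco activase of green tissue, stood at 12.37 in wild type. Of 12 listed markers of green tissue, it was the only 1 matched by gene symbol to a probe set of its own. The root hair gene EXPA7 stood at 3.44, while PYK10, a beta-glucosidase of roots and of seedling hypocotyls, stood at 11.2 in wild type, 11.31 in spt16-1 and 10.84 in ssrp1-2. Whole shoots hold many cell types, and more cells of a type and more RNA per cell cannot be told apart in them.

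Of the 138 members, 64 were assigned to 1 gene, 2 to several genes and 72 to none in the platform annotation used here. The single-gene members included 8 genes that were excluded by name, so counted but not described (STZ and AT2G20142 among them), and 1 expansin-like gene, EXLA1. The 55 others are described below, 40 of them by a role, protein family or domain from general knowledge and 15 by their values alone. Plants defend themselves with cell-surface receptors that sense microbial molecules and with intracellular receptors, many of the TIR-NBS-LRR type, that sense pathogen effectors. Kinases, WRKY transcription factors, secreted peptides and wall enzymes carry the response onward. The described genes are ordered below by such roles, followed by other enzymes and structural proteins; no enrichment of any role was tested.

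Across the 55 described genes, ssrp1-2 exceeded wild type by 0.51 to 1.47 on the log2 scale, with a median of 0.79. The difference between spt16-1 and wild type ran from 0.19 to 1.29, with a median of 0.40. Both differences use the same 3 wild-type arrays. The spt16-1 mean had covered between 26.7% and 87.8% of the distance from wild type to ssrp1-2, with a median of 50.9%. In 28 genes the step from wild type to spt16-1 was the larger one, and in 27 the step from spt16-1 to ssrp1-2. A difference of at least 1, a doubling, was reached by 19 of the 55 genes in ssrp1-2 and by 1 in spt16-1.

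**Figure D1:**
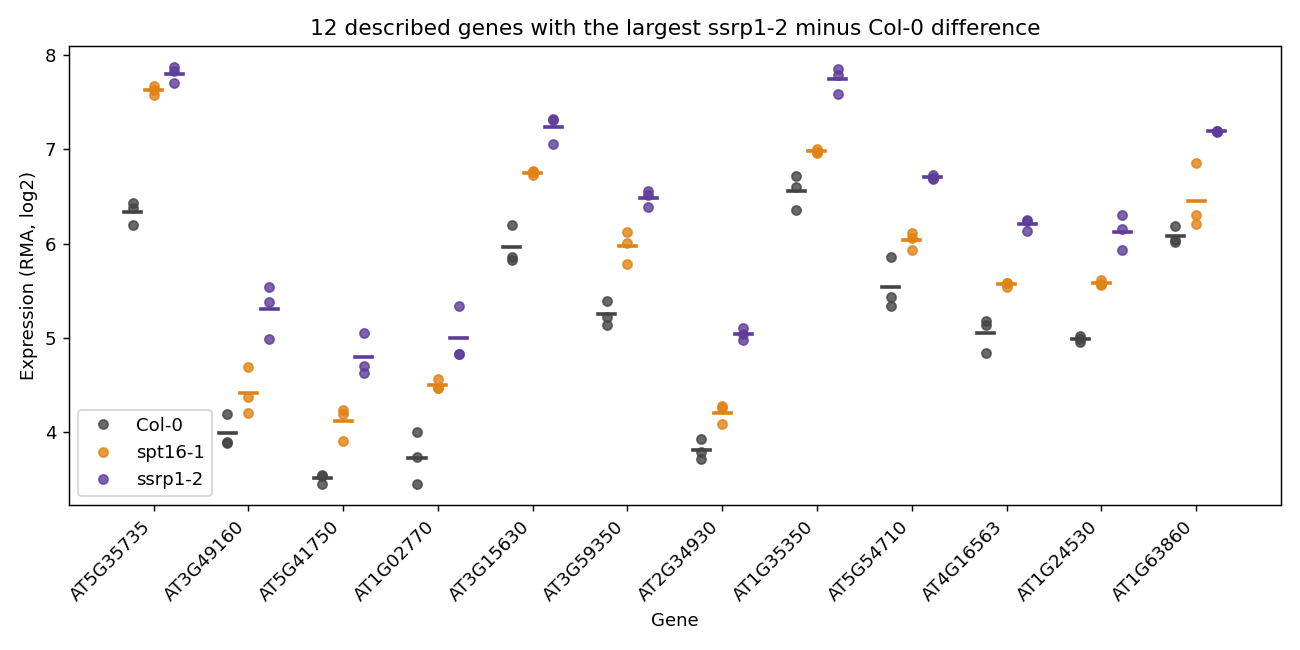
RMA expression on the log2 scale (y axis) of the 12 described genes with the largest ssrp1-2 minus Col-0 difference (x axis). Each point is 1 array, each bar the mean of 3 arrays, with Col-0 in grey, spt16-1 in orange and ssrp1-2 in purple; AT5G35735 has its large step between Col-0 and spt16-1, AT2G34930 between spt16-1 and ssrp1-2.

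Resistance proteins made up 6 of the described genes, of which 5 carry a TIR domain. AT5G41750 encodes a TIR-NBS-LRR protein, the receptor type with a TIR signalling domain, a nucleotide-binding site and leucine-rich repeats. Its wild-type arrays read 3.54, 3.45 and 3.54, its spt16-1 arrays 4.24, 4.20 and 3.90, and its ssrp1-2 arrays 4.70, 5.05 and 4.63. That is 2.43-fold above wild type in ssrp1-2 and 1.52-fold in spt16-1. As the rule requires of every member, no array of one genotype reached the range of another. AT1G63860, of the same type, read 6.02, 6.18 and 6.04 in wild type, 6.31, 6.86 and 6.20 in spt16-1, and 7.18, 7.19 and 7.19 in ssrp1-2. Its ssrp1-2 arrays were nearly identical, while spt16-1 replicate 3 lay only 0.020 above the highest wild-type array.

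AT4G14370 and AT4G19520, also TIR-NBS-LRR genes, exceeded wild type by 0.79 and 0.62 in ssrp1-2 and by 0.23 and 0.22 in spt16-1. AT3G04210 encodes a shorter TIR-NBS protein without the repeats; it averaged 6.17 ± 0.31 in wild type, 6.62 ± 0.04 in spt16-1 and 7.02 ± 0.09 in ssrp1-2 (SD, n = 3). AT2G34930, which encodes a leucine-rich repeat protein of the disease-resistance family, read 3.71, 3.79 and 3.93 in wild type, 4.09, 4.26 and 4.28 in spt16-1, and 5.04, 5.10 and 4.98 in ssrp1-2. This gene had the widest gap of the 55 between the highest spt16-1 array and the lowest ssrp1-2 array, 0.70. Over the 6 genes of the group, spt16-1 had covered 29.0% to 52.9% of the distance to ssrp1-2. TIR-NBS-LRR genes come in related copies, and probes shared between copies would make their separate values uncertain.

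Protein kinases made up 7 of the described genes. AT3G59350 read 5.13, 5.39 and 5.22 in wild type, 5.79, 6.12 and 6.01 in spt16-1, and 6.39, 6.51 and 6.56 in ssrp1-2, a 2.36-fold difference between ssrp1-2 and wild type. AT1G33770, related to cyclin-dependent kinases, read 3.97, 3.98 and 3.87 in wild type, 4.34, 4.42 and 4.30 in spt16-1, and 4.83, 5.29 and 4.57 in ssrp1-2. Its ssrp1-2 arrays spread more widely than those of the other genotypes (SD 0.36, against 0.06 and 0.07). AT1G03740, a kinase of the same kind, differed from wild type by 0.53 in ssrp1-2 and 0.31 in spt16-1.

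BIK1 encodes a cytoplasmic kinase that immune receptors at the cell surface phosphorylate after they sense bacterial flagellin. It read 6.67, 6.40 and 6.41 in wild type, 6.83, 6.79 and 6.72 in spt16-1, and 7.04, 6.98 and 7.0 in ssrp1-2. With a difference of 0.51 it was the described gene nearest to the size threshold from above, and wild-type replicate 1 came within 0.048 of the lowest spt16-1 array. AT2G31010, another kinase gene, read 5.49, 5.39 and 5.20 in wild type, 5.59, 5.78 and 5.83 in spt16-1, and 6.02, 6.40 and 6.11 in ssrp1-2. AT1G67470 and WNK7, a kinase of the with-no-lysine family, differed from wild type by 0.78 and 0.59 in ssrp1-2. The other WNK gene found by symbol, WNK9, stood at 2.19 in wild type and 2.41 in ssrp1-2 and was not a member.

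The transcription factor genes among the 55 described were WRKY29 and WRKY47, from a family of regulators best known in immunity. WRKY47 read 5.91, 6.19 and 6.19 in wild type, 6.48, 6.66 and 6.40 in spt16-1, and 6.72, 6.81 and 6.85 in ssrp1-2; WRKY29 read 4.86, 5.28 and 5.0, then 5.42, 5.43 and 5.42, then 5.50, 5.63 and 5.74. In both genes the mutants' nearest arrays were 0.07 apart. Of the 7 WRKY genes found by symbol, the other 5 were not members. WRKY22, close to WRKY29 in sequence, stood at 6.11 ± 0.25, 6.18 ± 0.18 and 6.75 ± 0.16 (SD, n = 3), with overlapping wild-type and spt16-1 arrays. AT5G66070, a RING finger gene of the ubiquitin ligase class, read 7.90, 7.65 and 7.93 in wild type, 7.98, 8.23 and 8.10 in spt16-1, and 8.56, 8.41 and 8.50 in ssrp1-2.

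Secreted and wall proteins supplied 4 genes. AT2G15880 encodes a leucine-rich repeat extensin, a wall protein known mainly from pollen; it read 7.56, 7.45 and 6.94 in wild type, 8.03, 8.17 and 8.02 in spt16-1, and 8.30, 8.33 and 8.40 in ssrp1-2. Wild-type replicate 3 lay well below the other wild-type arrays, and most of the difference was already present in spt16-1 (73.4%). AT3G16530, with a legume lectin domain, read 4.12, 4.38 and 4.29, then 4.82, 4.92 and 4.90, then 5.07, 5.14 and 5.49. AT5G44585 belongs to the family that encodes SCOOP peptides, secreted signals that activate immunity, and stood at 3.57, 3.34 and 3.02 in wild type, 3.82, 3.66 and 3.68 in spt16-1, and 4.17, 3.98 and 4.14 in ssrp1-2. These are low levels, near the value of 3.13 under which the lowest 25% of probe sets lay in wild type. The class III peroxidase gene AT5G58390 differed from wild type by 0.59 in ssrp1-2 and by 0.19 in spt16-1, the smallest spt16-1 difference of the 55.

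Among protease genes, 3 encode aspartyl proteases and 1 a serine carboxypeptidase-like protein. AT4G16563 read 4.84, 5.17 and 5.14 in wild type, 5.58, 5.58 and 5.54 in spt16-1, and 6.25, 6.13 and 6.24 in ssrp1-2, with wide gaps at both steps. AT3G59080 read 7.56, 7.61 and 7.65, then 7.82, 7.93 and 7.88, then 8.39, 8.38 and 8.65. SCPL34 read 7.97, 8.31 and 8.20, then 8.31, 8.59 and 8.34, then 8.83, 8.89 and 8.85; its lowest spt16-1 array exceeded its highest wild-type array by only 0.003. AT1G49050 differed from wild type by 0.61 in ssrp1-2. SCPL34 was the only member among 7 SCPL genes found by symbol. SCPL49 stood at 8.24 ± 0.05 in wild type, 8.66 ± 0.09 in ssrp1-2 and 9.10 ± 0.10 in spt16-1 (SD, n = 3).

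**Figure D2:**
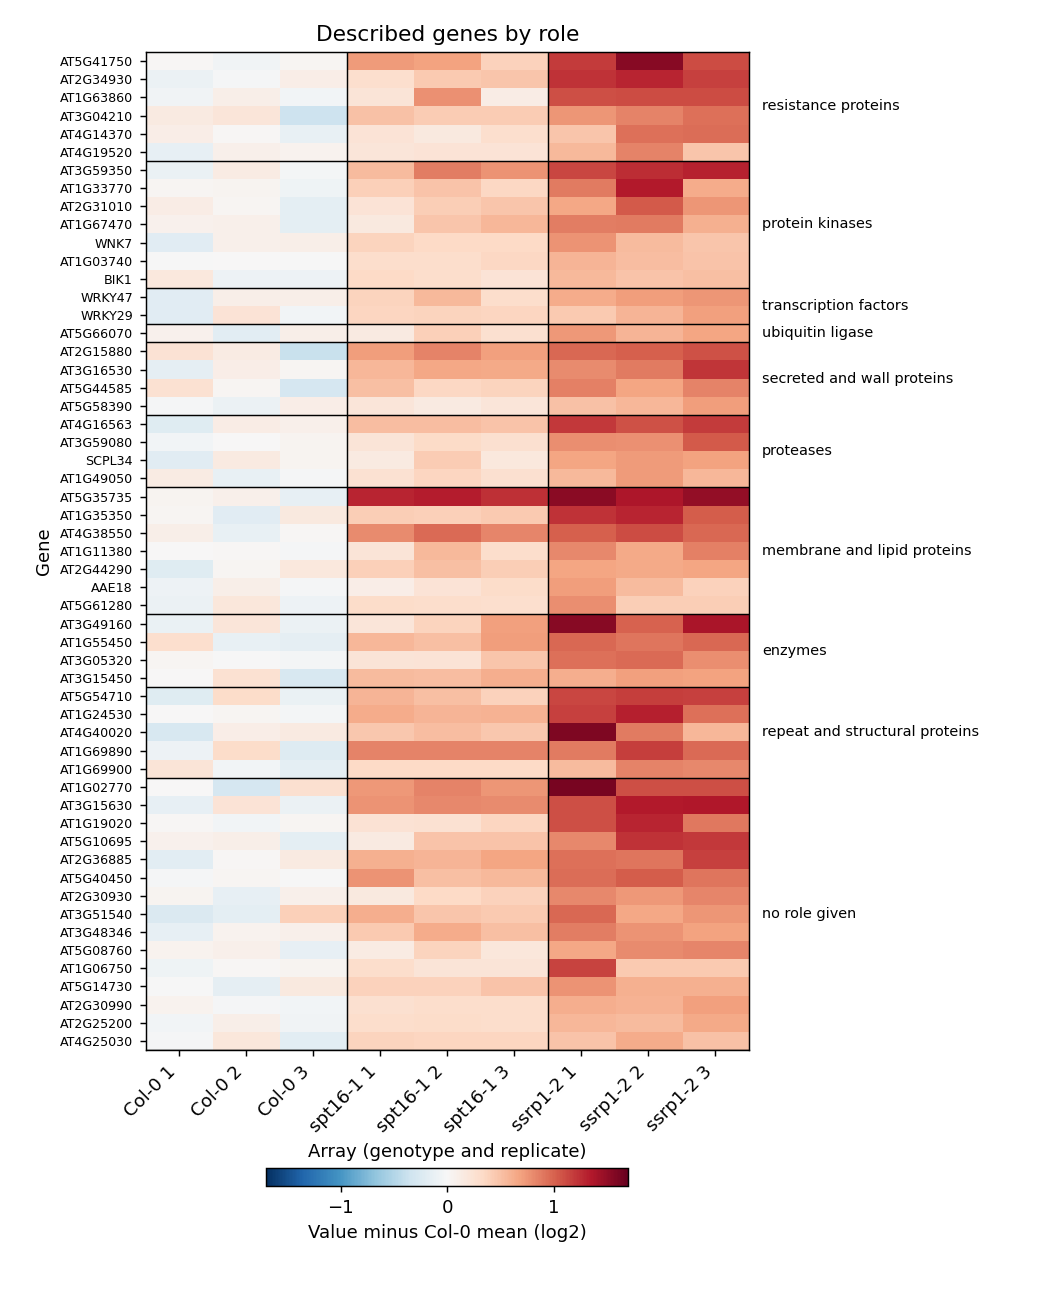
Value of each array minus the Col-0 mean of the same gene, on the log2 scale (colour), for the 55 described genes (rows, grouped by role) on the 9 arrays (columns). Red deepens from Col-0 to spt16-1 to ssrp1-2 in every group, as the rule requires; AT5G35735 and AT4G38550 are already deep in spt16-1, AT2G34930 and AT1G35350 are not.

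Membrane and lipid proteins, 7 genes, held the widest range of spt16-1 positions, from 35.5% to 87.8% of the distance to ssrp1-2. At the high end was AT5G35735, which encodes a membrane protein with cytochrome b561 and DOMON domains. Its arrays read 6.38, 6.43 and 6.20 in wild type, 7.63, 7.67 and 7.58 in spt16-1, and 7.88, 7.71 and 7.83 in ssrp1-2. It had the largest difference of the 55 in both mutants, 2.77-fold and 2.44-fold, yet the mutants were separated by a gap of 0.036 only. AT4G38550, of a phospholipase-like family, read 7.58, 7.35 and 7.49, then 8.27, 8.44 and 8.29, then 8.49, 8.58 and 8.44, and its mutants were 0.004 apart at their nearest arrays.

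AT1G35350 lay at the other end of that range. It encodes a protein of the PHO1 family, whose founding member exports phosphate, and read 6.60, 6.36 and 6.72 in wild type, 6.97, 6.96 and 7.0 in spt16-1, and 7.79, 7.86 and 7.59 in ssrp1-2. AT1G11380 of the PLAC8 family, the lipid transfer protein gene AT2G44290, the remorin gene AT5G61280 and AAE18, an acyl-activating enzyme, differed from wild type by 0.77, 0.66, 0.54 and 0.54 in ssrp1-2. AAE15 and AAE16, the other genes of that enzyme family found by symbol, differed by 0.14 and 0.00 and were not members.

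Metabolic and other enzymes were few. AT3G49160, of the pyruvate kinase family, read 3.88, 4.19 and 3.89 in wild type, 4.20, 4.37 and 4.69 in spt16-1, and 5.54, 4.99 and 5.38 in ssrp1-2; wild-type replicate 2 and spt16-1 replicate 1 were 0.007 apart. AT1G55450, a methyltransferase gene, read 6.89, 6.48 and 6.44, then 7.16, 7.12 and 7.31, then 7.58, 7.51 and 7.58. AT3G05320, of the O-fucosyltransferase family, read 4.19, 4.15 and 4.12, then 4.37, 4.39 and 4.62, then 5.09, 5.12 and 4.94. The nearest arrays of the 2 mutants were 0.30 apart in AT3G49160, 0.19 in AT1G55450 and 0.32 in AT3G05320. AT3G15450, of the aluminium-induced family and known for high levels under sugar starvation, averaged 7.68, 8.24 and 8.35 in the 3 genotypes, with the nearest arrays of the mutants 0.001 apart.

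Repeat and structural proteins supplied 5 genes. AT5G54710, with ankyrin repeats, read 5.34, 5.85 and 5.44, then 6.12, 6.05 and 5.94, then 6.68, 6.73 and 6.70. AT1G24530, with WD40 repeats, read 4.99, 5.02 and 4.95, then 5.62, 5.56 and 5.57, then 6.15, 6.31 and 5.93, and its steps were almost equal. AT4G40020, a myosin heavy chain-related gene, read 3.37, 3.76 and 3.80 in wild type, 4.10, 4.17 and 4.11 in spt16-1, and 5.23, 4.52 and 4.21 in ssrp1-2, with replicate 1 far above the others. Without that array the difference was 0.72 in place of 1.01.

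AT1G69890 and AT1G69900 both belong to the DUF569 family and are direct neighbours, with 0 listed genes between them. AT1G69890 averaged 5.16 ± 0.28, 6.0 ± 0.0012 and 6.17 ± 0.15, and AT1G69900 averaged 4.69 ± 0.20, 5.03 and 5.43 ± 0.16 (SD, n = 3). The relatedness of the pair leaves their separate values uncertain if probes are shared. AT2G30990 and AT2G31010 also lie close together, with 1 listed gene between them. No other 2 described genes had fewer than 10 listed genes between them, by the gene order of RefSeq TAIR10.1.

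The 15 genes without a stated role differed from wild type by 0.53 to 1.27 in ssrp1-2. AT3G15630 read 5.83, 6.20 and 5.86 in wild type, 6.72, 6.77 and 6.76 in spt16-1, and 7.06, 7.31 and 7.32 in ssrp1-2. AT1G02770 read 3.73, 3.45 and 4.0, then 4.47, 4.57 and 4.47, then 5.34, 4.83 and 4.83. AT1G19020 read 2.6, 2.52 and 2.6, then 2.82, 2.83 and 2.94, then 3.67, 3.87 and 3.47. It had the smallest share of its difference in spt16-1, 26.7%, and its wild-type values lay within the lowest 25% of probe sets, where a fold change is uncertain. AT3G48346 (2.33, 2.86 and 3.10) lay in the same low range, as did the remorin gene AT5G61280 described above, at 3.12 in wild type. AT1G06750 read 4.57, 3.86 and 3.86 in ssrp1-2 against 3.42 ± 0.06 in wild type (SD, n = 3), again with replicate 1 far above the others. Without that array its difference was 0.44 in place of 0.67, under the size threshold. AT5G40450 averaged 8.68, 9.29 and 9.64 in the 3 genotypes, and AT5G10695 stood 2.12-fold above wild type in ssrp1-2.

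Among the 72 members with no gene in the annotation, ssrp1-2 exceeded wild type by 0.51 to 5.49, with a median of 0.86. Probe set 13356037 gave that highest value and stands outside the rest of the set. It read 3.76, 4.31 and 4.22 in wild type, 6.65, 6.87 and 6.60 in spt16-1, and 9.55, 9.62 and 9.60 in ssrp1-2. The next largest of these differences was 2.30, and the largest among all 64 single-gene members was 2.39. It is mentioned for its size, seen after the values were known.

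**Figure D3:**
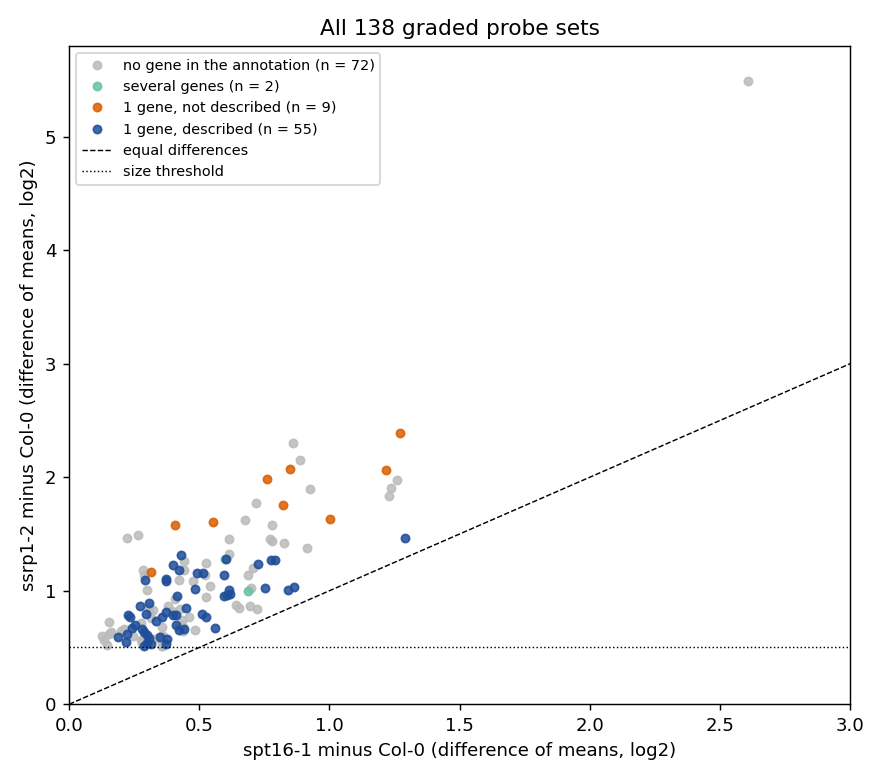
Difference of means between ssrp1-2 and Col-0 (y axis) against that between spt16-1 and Col-0 (x axis), both on the log2 scale, for all 138 members; the 2 differences share the Col-0 arrays. All points lie above the dashed line of equal differences and the dotted size threshold by construction, and 1 unnamed probe set stands alone at 2.61 and 5.49.

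Around the size threshold of 0.5, the order of the arrays alone was met by 203 probe sets, of which 65 differed by less than 0.5. The 3 described genes just inside it were AT4G25030, AT1G03740 and BIK1, at 0.53, 0.53 and 0.51. The 3 single-gene probe sets just outside were AT4G19200, AT4G17900 and AT1G78830, at 0.49, 0.49 and 0.48. Steps in the other directions that were counted were less frequent on the array. Orders with wild type between the mutants were not counted. With the same rule, 95 probe sets were highest in spt16-1 with ssrp1-2 between, 57 were lowest in ssrp1-2 with spt16-1 between, and 52 were lowest in spt16-1 with ssrp1-2 between.

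Members stood at 2.24 to 9.66 in wild type, with a median of 5.88, against a median of 4.95 over all probe sets. In wild type, 5 of the 138 were among the lowest 25% of probe sets. The SDs of the members had a median of 0.15 in wild type, 0.08 in spt16-1 and 0.10 in ssrp1-2, against 0.11, 0.11 and 0.12 over all probe sets. The rule sets spt16-1 between the other groups, and 28 members (20.3%) carried exactly the same value on at least 2 spt16-1 arrays, against 16.6% of all probe sets. AT1G69900 held 1 value on all 3. A repeat within wild type occurred in 1 member and in 15.1% of all probe sets, and one within ssrp1-2 in 0 members and in 13.9% of all. Over all 9 arrays, 59.3% of all probe sets held some repeated value, which in 95.1% of them was the median of the 9; the rule places the spt16-1 values of a member around that median. The 110 members without a repeat in spt16-1 had a median ssrp1-2 difference of 0.96 and a median spt16-1 SD of 0.10, and the 28 with one had 0.72 and 0.02. For those 28, the spt16-1 SD is no measure of the spread between pools.

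In the limma fit over all 28501 probe sets, 132 of the 138 members were higher in ssrp1-2 than in wild type at a Benjamini-Hochberg adjusted p under 0.05, against 1.74% of all probe sets. For spt16-1 against wild type 43 members passed as higher, against 1.21%, and for ssrp1-2 against spt16-1 40 passed, against 0.519%. The rule used these arrays, so the counts say only how large the members' differences are beside the spread: the outer step passed for nearly all, and the 2 inner steps for a minority. Of the 55 described genes, 52, 14 and 9 passed in the 3 comparisons, and AT1G24530 and AT4G16563 passed in each of them. AT4G16563 is 1 of 11 described genes with a repeated spt16-1 value, and such values enter the spread that the fit uses. The 3 described genes that passed in none were AT1G06750, AT4G40020 and AT5G61280. The count of 43 was 23, 20 and 22 without spt16-1 replicates 1, 2 and 3. The count of 40 was 18, 24 and 20 without those arrays, and 20 and 26 without ssrp1-2 replicates 2 and 3.

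The order was also read on arrays that the choice had not used. When the rule was applied to the 6 arrays with replicate numbers 2 and 3, it chose 301 probe sets, of which 184 (61.1%) had the same order on the 3 arrays numbered 1, against 15.1% of all probe sets. Choosing without number 2 gave 271 probe sets, of which 184 (67.9%) kept the order, against 14.9%. Without number 3 it gave 251, of which 176 (70.1%) kept it, against 14.8%. On the left-out arrays the median difference between ssrp1-2 and wild type was 0.61, 0.62 and 0.64, below the 0.78, 0.76 and 0.74 on the arrays that chose them. The spt16-1 array exceeded the wild-type array in 68.4%, 82.3% and 81.7% of the chosen probe sets, against 44.1%, 46.7% and 48.1% of all. The ssrp1-2 array exceeded the spt16-1 array in 89.7%, 82.3% and 84.9%, against 50.4%, 47.4% and 46.7% of all. The chosen sets of the 3 rounds share arrays with each other, and no p-value is attached to them. Repeated values lay mostly at the median of all 9 arrays, so values of left-out arrays may depend on the arrays that chose. An equal pair of arrays counts as not in order, so repeats also lower the shares given for all probe sets. How far they do was not measured.

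**Figure D4:**
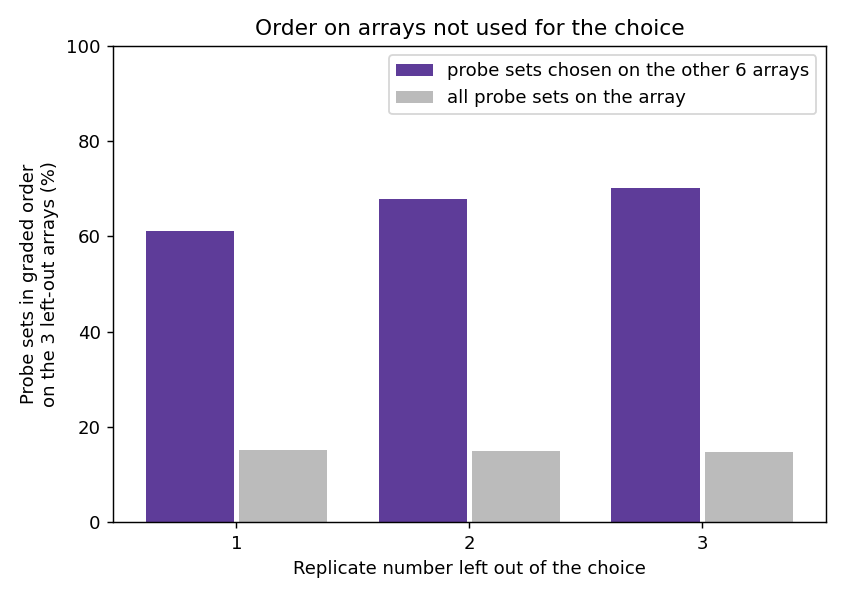
Share of probe sets (y axis, percent) with ssrp1-2 above spt16-1 above Col-0 on the 3 arrays of the replicate number left out (x axis). Purple bars are probe sets chosen on the other 6 arrays (61.1%, 67.9% and 70.1%), grey bars all 28501 probe sets (15.1%, 14.9% and 14.8%).

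Lists of related pathways were matched by gene symbol. Genes carried under a locus name or on an unnamed probe set were therefore not found. The counts show which symbols matched, not which genes the array measured. Of 37 listed early genes of pattern-triggered immunity, 4 matched a probe set of their own. BIK1 and WRKY29 are members. WRKY22 had a difference of 0.64 in ssrp1-2 (limma adjusted p = 0.0600), and the receptor gene EFR one of -0.17 (adjusted p = 0.736). BIK1 and WRKY29 were chosen by that same difference, and the list is too short to be read as a group. Of 23 listed salicylic acid genes, 2 were matched. SAG101, a partner of the immune regulator EDS1, was higher in ssrp1-2 by 0.45 (limma adjusted p = 0.0373), and GRX480 differed by 0.12. PME41, a pectin methylesterase, was the 1 matched gene of 22 in the cell wall list. It was higher in ssrp1-2 by 0.84 (limma adjusted p = 0.0155) and differed by 0.22 in spt16-1 (adjusted p = 0.572).

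No matched gene of the remaining lists was a member, and none passed in either mutant. For touch and calcium 6 of 26 genes were matched, for jasmonate 2 of 30 and for ethylene 1 of 23. For early abiotic transcription factors 1 of 32 was matched, and for transcript elongation and histone chaperones 2 of 22. Among the last, the histone chaperone genes ASF1A and ASF1B differed by -0.11 each in ssrp1-2. In wild type the 6 touch and calcium genes stood at 2.02 (CML23) to 3.16 (CML43), so near background that a difference could have gone undetected.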

How the data were processed

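Transcripts were measured on 9 single-colour Affymetrix arrays, 3 per genotype. Per the submitters' processing notes, the authors used RMA and version 1.3 of Affymetrix Expression Console; the deposited values are log2, and no scaling was added. From 200 ng of RNA per array, no counting depth follows, and the number of arrays limits the precision. The platform annotation gave 1 gene to 16722 probe sets, several to 759 and none to 11020, and 16574 of the first matched RefSeq TAIR10.1, used for names and gene order. Its gene names carry few descriptions, so word-based families were uneven. They held 0 kinases and 7 WRKY genes, but 72 ubiquitin ligase parts and 67 proteases or inhibitors. By words, 2 of these WRKY genes, 0 of the ubiquitin ligase parts and 1 of the proteases or inhibitors were members. Roles were assigned from general knowledge after the members were known. Sequences were not used here.

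Members and lists were chosen with earlier results of these data known. Described genes are all single-gene members outside 12 excluded names and expansin or XTH genes. Every array is given for the 12 largest differences and for the 3 largest of each role group. Also named are 3 genes on either side of the threshold and list genes that passed. Tests used the moderated two-sided test of limma (version 3.58.1, under R 4.3.3; 1 fit of 9 arrays, 6 residual and 2.76 prior degrees of freedom), adjusted over all probe sets, and were tested on simulated data. Each p-value rests on the spread between pools within a genotype, joined over the 3 genotypes and moderated toward that of all probe sets. It covers no wider variation, and repeated values can narrow that spread. No replicate block was fitted in the main result. Alternatives were other thresholds, scalings, moderation, filters, a replicate block and leaving out arrays.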

Additional observations from a re-analysis of the deposited data

How the results depend on the processing

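Membership was 133 with arrays centred on a common median (129 of the 138 shared) and 128 after a further quantile normalization (124 shared). A threshold of 1 left 60 and single-gene probe sets alone, chosen after seeing the data, 64. Leaving out 1 array gave 154 to 195, since fewer arrays must be in order, and 133 to 138 of the members were shared. A member keeps its order when an array is left out, so only the size threshold can remove it. Without an spt16-1 array all 138 stay by construction, so this sharing is no measure of stability. Members passing in ssrp1-2 against wild type numbered 111 to 129 without 1 array. For spt16-1 against wild type the 43 became 68 with an intensity trend, 27 in the unmoderated test, 19 in the fit of 2 genotypes alone, and 20 to 37 without 1 array. For ssrp1-2 against spt16-1 the 40 became 64, 23 and 21 under the same settings, 23 with the replicate block, and 18 to 34 without 1 array. The block gave 123 and 32 for the other comparisons. The causes were not tested. Order on left-out arrays was kept by 66.4% on average, 61.1% to 70.1% over the 3 replicate numbers; 52.9% also differed by at least 0.5 there, a setting added after seeing the data. Of 440 recomputed ssrp1-2 differences of the 55 described genes, 0 changed sign. Where 1 array was left out, the sign was fixed in advance. The rule places every ssrp1-2 value of a member above every wild-type value. Leaving out 1 array took 7 genes below 0.5 in 11 cases: AT5G61280 (lowest, 0.42), AT1G06750, AT4G25030, AAE18, BIK1, WRKY29 and WNK7. Deviations of same-numbered arrays correlated at -0.14 to 0.07 over 9 pairs, and those of differently numbered arrays at -0.11 to 0.09. The labels do not say whether same-numbered arrays share more than a number, and these correlations cannot settle it. Brightness near background limits genes below about 3.13.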
